A study of Rattus norvegicus with 42 samples.

Results

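A set of 9 genes of matrix turnover and wound repair was followed through the light-damaged and injected rat retina. They were taken by symbol from the rows of a count table of 32623 genes: the proteases Mmp3, Mmp9, Adamts1, Adamts4 and Plau, the protease receptor Plaur, the protease inhibitor Timp1, the matrix protein Tnc and the secreted pattern recognition protein Ptx3. All 9 passed the filter on low counts, which kept 18094 genes.

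The extracellular matrix of the retina is a meshwork of hyaluronan and proteoglycans between the cells, with basement membranes at its inner and outer borders and around its vessels. Metalloproteinases of the MMP and ADAMTS families cut these proteins, urokinase activates plasmin at the cell surface, and TIMP proteins block the metalloproteinases. In injured tissue such enzymes and their inhibitors are often made together, by glia, vascular cells and immigrating leukocytes, along with tenascin and pentraxin.

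Polyadenylated RNA of whole retina from adult rats was sequenced in 6 groups, to measure the response to intense light and to see if nanoceria, nanoparticles of cerium oxide that scavenge reactive oxygen species, alter it. Control rats were left untreated, and light damage rats were exposed to 15000 lux for 24 h without an injection. Vehicle rats received vehicle into the vitreous, the gel that fills the eye, and nanoceria rats received cerium oxide particles there at 1 mM, both without damaging light. Vehicle plus light and nanoceria plus light rats had the same injections and the same light exposure. The strain, the sexes, the exact age, the time from injection to light and the time from light to dissection were not stated in the sample descriptions. A library holds the RNA of many cell types, so fewer cells of a type and less RNA per cell cannot be told apart.

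Counts were analysed for 5 control, 5 vehicle, 4 nanoceria, 7 light damage, 5 vehicle plus light and 5 nanoceria plus light libraries, 31 of 42 labelled samples. Total counts per library ran from 25158407 to 182162368, with a median of 106887932. The labels call the replicates biological. Vehicle 4 and 7 were nearly identical, as were light damage 4 and 7, but each pair differed by more than sampling noise and was kept as separate libraries. Levels are given as CPM, counts scaled to the size of the library by the TMM method. The summed level of 9 rod markers fell from a median of 43107 CPM in control to 10443 CPM in light damage. Of the 9 rod markers, 8 were called lower, where 22.5% of all genes were called in either direction and 11.9% were called higher. Of 7 microglial markers, 4 were called higher in nanoceria against control, where 1.73% of all genes were called higher. Their summed level was 274 to 360 CPM in nanoceria and 200 to 307 CPM in control, with overlap. Summed lens markers were 649 to 8208 CPM in control. Those of vehicle 1, 2 and 3 and nanoceria 1 (31970, 9630, 16192 and 12649 CPM) lay above every control library.

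Light raised most of the 9 genes in each injection state. In light damage against control, 7 rose and none fell, Plau and Tnc being the exceptions. After vehicle, 6 rose, and after nanoceria the same 6 rose (Timp1, Mmp3, Adamts1, Adamts4, Plaur and Ptx3), while Mmp9 passed in uninjected eyes and not in injected ones. Ptx3 had the largest log2 fold change of the 9 in all 3 comparisons, from 3.57 to 5.13, and Adamts1 the smallest of the genes that rose, from 0.97 to 1.18. A gene was said to rise or fall at a Benjamini-Hochberg adjusted p under 0.05 of the quasi-likelihood test of edgeR, adjusted over 18094 genes, and every adjusted p below is of this test.

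The share of all genes called higher was 11.9% in light damage against control, 9.67% after vehicle and 8.15% after nanoceria, against 7, 6 and 6 of the 9. At least a 2-fold rise was called for 7, 5 and 6 of the 9, against 3.51%, 2.4% and 1.79% of all genes. All libraries with light lay above all without it in their comparison for 5 genes in light damage (Timp1, Mmp3, Adamts1, Adamts4, Ptx3), for the same 5 after vehicle and for 4 after nanoceria, where Mmp3 overlapped. Of all genes, 6.47%, 7.65% and 7.11% were separated upwards in this way. The median log2 fold change of the 9 was 1.85, 1.19 and 1.25, and that of all genes tested was -0.01, 0.02 and 0.04. The 9 genes were chosen with earlier results of these data known, so these counts describe them and are no independent evidence.

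**Figure D1:**
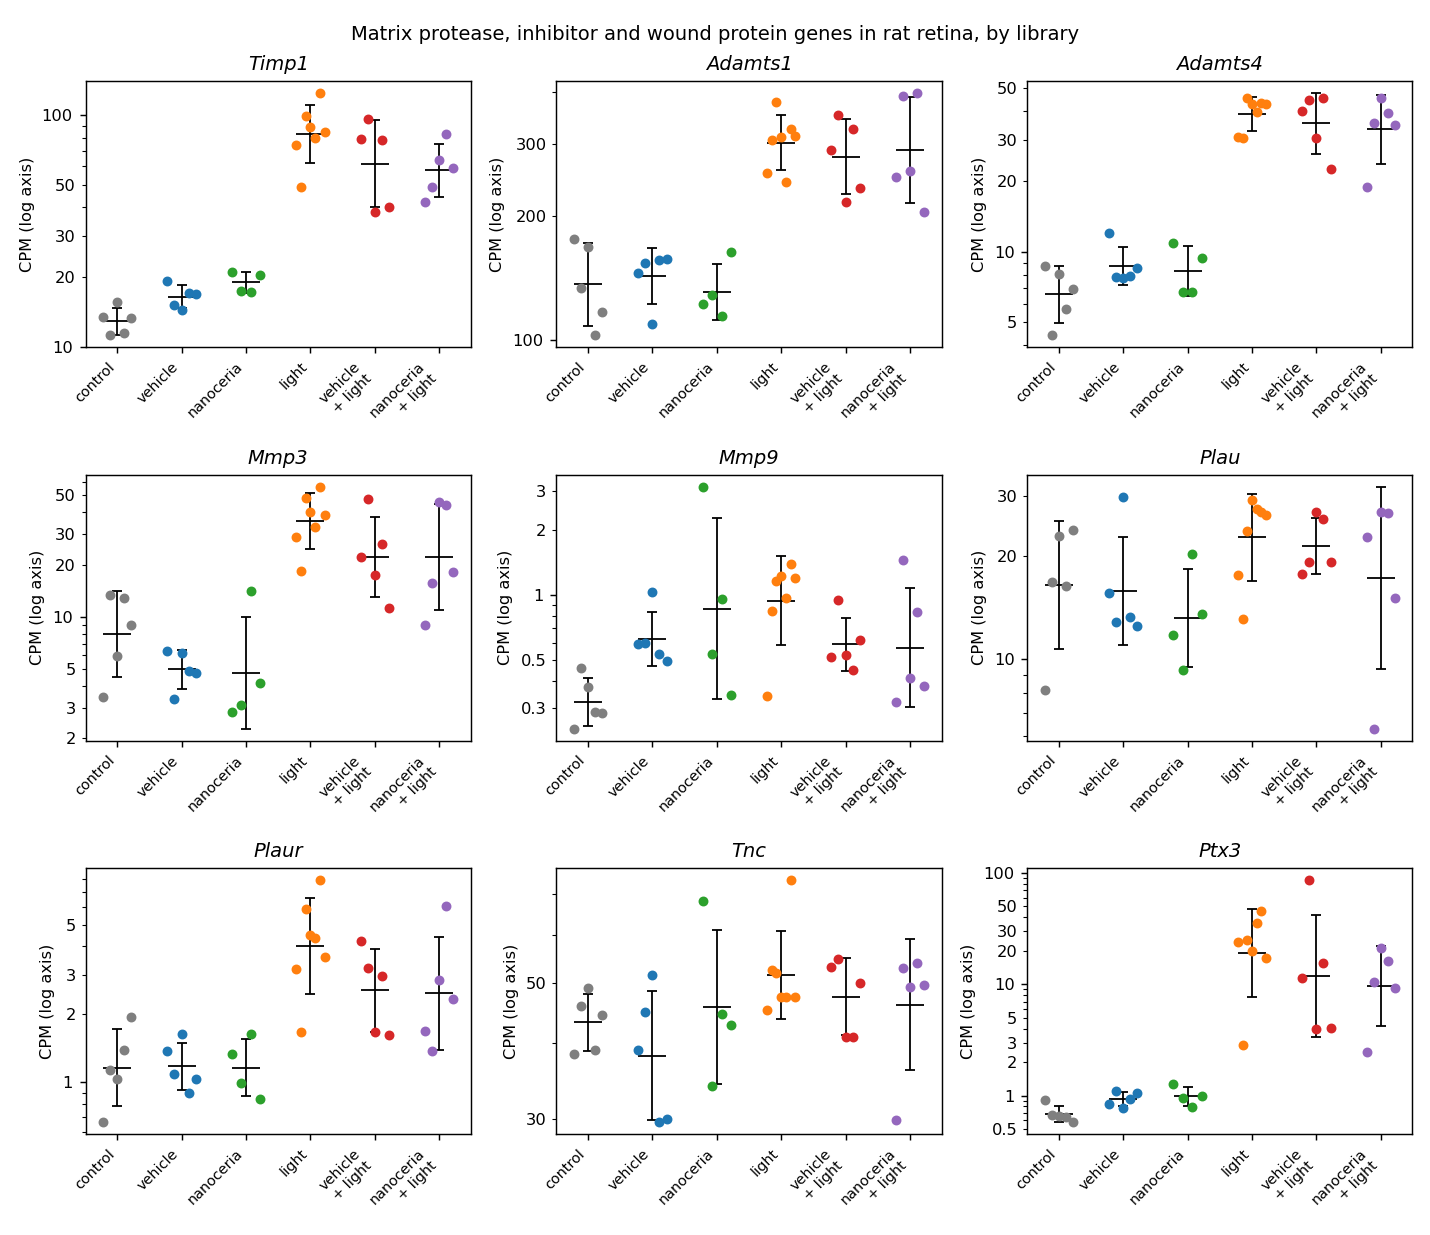
Level of each gene in every library, in CPM on a log axis, by group. Points are libraries, and bars give the mean and SD of log2 CPM turned back to CPM. Timp1, Adamts1, Adamts4 and Ptx3 had no light-exposed library at or below any library without light, whereas Plau and Tnc overlapped in all groups.

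Bases upstream of the annotated start are shown for 3 genes that rose with light and hold a match to a site of the AP-1 or STAT families of inducible transcription factors. They come from RefSeq promoters on the GRCr8 assembly, read 5′ to 3′ and ending at the last base before the start of the annotated gene. AP-1 sites (TGANTCA, both strands) were found in 2 of 8 promoters with an entry and in 7.33% of 33469 promoters of 300 bases, and a STAT site (TTCNNNGAA, both strands) in 1 of 8 and in 8.87%. Capitals mark the AP-1 match in Mmp3 and Plaur, 71 to 65 and 83 to 77 bases upstream, and the STAT match in Adamts4, 121 to 113 bases upstream, counted from the transcript start of the promoter table. The Mmp3 stretch is chr8:12925031-12925266, that of Plaur chr1:89181113-89181362 and that of Adamts4 chr13:86202761-86203010, all on the plus strand.
Mmp3: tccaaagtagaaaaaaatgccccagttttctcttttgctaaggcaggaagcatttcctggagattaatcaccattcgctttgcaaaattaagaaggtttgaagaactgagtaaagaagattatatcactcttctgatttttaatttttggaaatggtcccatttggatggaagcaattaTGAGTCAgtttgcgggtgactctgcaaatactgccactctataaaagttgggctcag
Plaur: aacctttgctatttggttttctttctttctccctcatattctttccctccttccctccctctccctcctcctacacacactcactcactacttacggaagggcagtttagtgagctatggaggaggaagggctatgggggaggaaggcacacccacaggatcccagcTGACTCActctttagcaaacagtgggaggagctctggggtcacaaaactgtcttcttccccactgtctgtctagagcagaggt
Adamts4: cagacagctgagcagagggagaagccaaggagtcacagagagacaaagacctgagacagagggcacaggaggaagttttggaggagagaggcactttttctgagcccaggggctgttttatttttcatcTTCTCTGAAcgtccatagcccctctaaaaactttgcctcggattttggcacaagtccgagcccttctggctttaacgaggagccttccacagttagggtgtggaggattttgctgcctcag

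A match is a description of the letters and not evidence of binding. The looser NF-kB pattern (GGG and CC with 5 free bases between them, both strands) was held by 6 of 8 promoters, among them that of Ptx3 within 14 bases of its start, and by 47.3% of all. Some of these matches overlap: 2 of 3 in Plau, 3 of 4 in Timp1 and both in Ptx3. The Timp1 window of the table lies inside the annotated gene and holds no base upstream of it. Over the 7 genes with upstream bases, matches in those bases were held by 5 for NF-kB, 2 for AP-1 and 1 for STAT. Mmp9 is named here without a promoter.

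Stromelysin 1, Mmp3 (ENSRNOG00000032626), cuts proteoglycans, laminin and fibronectin and can activate other MMPs. Its level was 3.46, 13.3, 5.92, 12.9 and 8.99 CPM in control 1, 2, 4, 5 and 6. Light damage libraries ran from 18.3 (light damage 2) through a median of 38.7 to 56.2 CPM (light damage 6), all above every control library. The change was 2.08 ± 0.46 (log2 fold change, SE), or 4.22-fold with a 95% interval of 2.19 to 8.11 (edgeR adjusted p = 0.00131).

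After vehicle, Mmp3 stood at 6.36, 3.36, 6.23, 4.88 and 4.74 CPM in vehicle 1, 2, 3, 4 and 7, and at 22.1, 47.5, 17.4, 26.3 and 11.2 CPM in vehicle plus light 1, 2, 3, 4 and 6. The groups did not overlap, and Mmp3 rose by 2.29 ± 0.49 (edgeR adjusted p = 0.00122). After nanoceria it was 2.82, 3.13, 14.0 and 4.16 CPM in nanoceria 1, 2, 3 and 5, and 8.996, 15.7, 45.7, 44.03 and 18.2 CPM in nanoceria plus light 1 to 5. Nanoceria 3 lay above nanoceria plus light 1, the only overlap. The rise was 2.14 ± 0.52 (edgeR adjusted p = 0.00576), 2.98 without nanoceria 3, and missed the threshold when these groups were fitted alone (edgeR adjusted p = 0.0938).

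Gelatinase B, Mmp9 (ENSRNOG00000017539), cuts denatured collagen and basement membrane collagen and is stored in the granules of neutrophils. It was near the lower end of detection, with 7 to 267 counts a library. Control 1, 2, 4, 5 and 6 had 0.241, 0.457, 0.374, 0.287 and 0.286 CPM, and light damage libraries from 0.343 (light damage 1) through a median of 1.16 to 1.39 CPM (light damage 6). All but light damage 1, the shallowest library with 7 counts of the gene, lay above all of control, and the change was 1.64 ± 0.45 (edgeR adjusted p = 0.00766).

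In the injected groups Mmp9 did not pass a test of light. Vehicle libraries had 0.592, 0.598, 1.03, 0.534 and 0.496 CPM and vehicle plus light libraries 0.515, 0.944, 0.527, 0.451 and 0.619 CPM, with full overlap (-0.08 ± 0.45, edgeR adjusted p = 0.945). Nanoceria libraries had 3.16, 0.531, 0.957 and 0.345 CPM and nanoceria plus light libraries 0.319, 1.46, 0.415, 0.831 and 0.379 CPM. Nanoceria 1 held the highest level of all 31 libraries, and the change was -0.87 ± 0.48 (edgeR adjusted p = 0.254).

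The summed level of 11 neutrophil markers was 1.34 to 2.55 CPM in control, where Elane was at 0 in every library, 3.01 to 27.4 CPM in light damage, 2.88 to 30.9 CPM in vehicle plus light and 3.73 to 10.4 CPM in nanoceria plus light. Without light it was 3.35 to 5.48 CPM in vehicle and 3.68 to 9.28 CPM in nanoceria. Of 8 markers that passed the filter, 6 were called higher in light damage against control (11.9% of all genes called higher). In vehicle plus light against vehicle, where Mmp9 was not called, 4 were called higher (9.67% of all genes). In nanoceria plus light against nanoceria, 0 were called higher (8.15% of all genes). The library with the largest sum in light damage, light damage 1, had the lowest Mmp9 of its group, from 7 counts. Light damage 6, with the next largest sum at 26.8 CPM, had the highest. In vehicle plus light, the largest sum and the highest Mmp9 were both in vehicle plus light 2. The largest sum in nanoceria plus light was in nanoceria plus light 3, which had the median Mmp9 of its group. The part of these cells in the level of Mmp9 was not tested.

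The aggrecanase Adamts4 (ENSRNOG00000003538), which cuts aggrecan, versican and brevican, separated light from no light without overlap in all 3 states. Control libraries had 8.72, 4.41, 8.07, 5.70 and 6.96 CPM, and light damage libraries 30.6 (light damage 2) to 45.3 CPM (light damage 3), with a median of 42.6 CPM. Adamts4 rose by 2.54 ± 0.22, or 5.81-fold with a 95% interval of 4.25 to 7.94 (edgeR adjusted p = 2.48e-09).

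After vehicle, Adamts4 went from 12.1, 7.81, 7.75, 7.91 and 8.54 CPM to 39.9, 44.3, 30.6, 45.4 and 22.5 CPM with light. It rose by 2.05 ± 0.22 (edgeR adjusted p = 1.69e-07). After nanoceria it went from 10.9, 6.71, 6.75 and 9.43 CPM to 18.9, 35.5, 45.5, 38.98 and 34.6 CPM. The rise was 2.04 ± 0.24 (edgeR adjusted p = 1.27e-06), and nanoceria plus light 1 was the lowest of the 17 light-exposed libraries.

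Adamts1 (ENSRNOG00000001607), a related protease that also cuts versican and aggrecan, rose about as much in each state. It had 176, 134, 169, 103 and 117 CPM in control, and 242 (light damage 5), a median of 312 and 379.9 CPM (light damage 3) in light damage, a rise of 1.13 ± 0.17 (edgeR adjusted p = 1.72e-05). Vehicle libraries had 146, 154, 109, 157 and 157 CPM and vehicle plus light libraries 289, 352, 216, 327 and 235 CPM. Nanoceria libraries had 122, 128, 114 and 164 CPM and nanoceria plus light libraries 249.5, 391, 257, 398 and 205 CPM. No light-exposed library reached down to one without light, and the rises were 0.97 ± 0.18 (edgeR adjusted p = 0.000298) and 1.18 ± 0.20 (edgeR adjusted p = 9.47e-05).

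Urokinase, Plau (ENSRNOG00000010516), the secreted protease that turns plasminogen into plasmin, passed no test. Control libraries had 8.12, 16.8, 22.9, 16.3 and 23.8 CPM, and light damage libraries 13.2 (light damage 2) to 29.1 CPM (light damage 4) with a median of 26.3 CPM. All groups overlapped. The log2 fold changes with light were 0.42 ± 0.30, 0.37 ± 0.32 and 0.50 ± 0.34 (uninjected, vehicle, nanoceria), with edgeR adjusted p from 0.366 to 0.499. Averaged over the 3 states the change was 0.43, with a 95% interval of 0.05 to 0.82 and an edgeR adjusted p of 0.0702. It passed with library size as the scaling, with limma-voom, or without any of control 6, light damage 2, vehicle 3, nanoceria 3 or nanoceria plus light 2. Summed fibroblast markers (5 genes) ran from 711 to 6482 CPM in nanoceria plus light. Their highest library was also that of Plau in control, nanoceria, vehicle plus light and nanoceria plus light, but not in vehicle or light damage. For Mmp3 this held in vehicle, nanoceria and nanoceria plus light alone. The part of these markers in either level was not tested.

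Its receptor Plaur (ENSRNOG00000037931), which holds urokinase at the cell surface, rose in all 3 states. In control it had 0.666, 1.13, 1.04, 1.39 and 1.95 CPM, and in light damage 1.66 (light damage 2), a median of 4.35 and 7.88 CPM (light damage 6). Light damage 2 alone lay within the range of control, and the change was 1.85 ± 0.37, or 3.59-fold with a 95% interval of 2.12 to 6.09 (edgeR adjusted p = 0.000495).

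In the injected states the light-exposed and unexposed libraries of Plaur overlapped. Vehicle libraries had 1.38, 1.08, 1.63, 0.894 and 1.03 CPM and vehicle plus light libraries 4.25, 3.21, 1.68, 2.95 and 1.61 CPM, a change of 1.19 ± 0.38 (edgeR adjusted p = 0.0310). Nanoceria libraries had 1.34, 0.991, 1.63 and 0.844 CPM and nanoceria plus light libraries 1.68, 1.38, 2.84, 6.07 and 2.33 CPM, a change of 1.25 ± 0.41 (edgeR adjusted p = 0.0408). Both calls were fragile. Leaving out vehicle 2, 4 or 7, or 1, 2 or 4 of the vehicle plus light libraries, ended the call after vehicle (edgeR adjusted p up to 0.107), as did summing near-identical libraries (0.0810). The call after nanoceria ended without nanoceria 1, 2 or 5 or nanoceria plus light 3 or 4 (edgeR adjusted p up to 0.222), without a filter (0.0505), with near-identical libraries summed (0.0509) and with these groups fitted alone (0.140). The difference between the responses was not called (-0.66 with a 95% interval of -1.72 to 0.40 for vehicle against no injection, edgeR adjusted p = 0.974).

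The inhibitor Timp1 (ENSRNOG00000010208), which blocks most MMPs, had the 28th smallest p of all genes tested in light damage against control. Control 1, 2, 4, 5 and 6 had 13.4, 11.2, 15.5, 11.4 and 13.3 CPM, a mean of 13.0 ± 1.76 (SD, n = 5). Light damage libraries had 48.7 (light damage 2), a median of 85.0 and 124 CPM (light damage 6), a mean of 85.8 ± 23.2 (SD, n = 7). Timp1 rose by 2.73 ± 0.23, or 6.62-fold with a 95% interval of 4.79 to 9.17 (edgeR adjusted p = 1.48e-09).

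In vehicle 1, 2, 3, 4 and 7, Timp1 stood at 19.3, 15.1, 14.3, 16.99 and 16.8 CPM, and in vehicle plus light 1, 2, 3, 4 and 6 at 79.1, 95.95, 37.97, 78.2 and 39.96 CPM. The light-exposed libraries fell into a higher set of 3 and a lower pair, all above vehicle, and the rise was 2.00 ± 0.23 (edgeR adjusted p = 4.10e-07). Nanoceria 1, 2, 3 and 5 had 21.1, 17.4, 17.2 and 20.4 CPM, and nanoceria plus light 1 to 5 had 42.01, 48.7, 64.0, 82.9 and 59.1 CPM. The rise there was 1.64 ± 0.25 (edgeR adjusted p = 2.81e-05), again without overlap.

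Ptx3 (ENSRNOG00000012280), a long pentraxin that marks microbes and cell debris and cross-links hyaluronan matrix, was low in every library without light. Control libraries had 0.907, 0.665, 0.661, 0.645 and 0.584 CPM. Light damage libraries had 2.83 CPM (light damage 2), a median of 24.0 and 45.5 CPM (light damage 6). All were above control, though light damage 2 lay far below the other 6, and Ptx3 rose by 5.13 ± 0.75, or 35.1-fold with a 95% interval of 12.2 to 101 (edgeR adjusted p = 9.20e-06).

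After vehicle, Ptx3 went from 0.841, 1.10, 0.778, 0.926 and 1.06 CPM to 11.5, 86.2, 3.94, 15.5 and 4.05 CPM with light. The level in vehicle plus light 2 was the highest of all libraries, and the change of 4.68 ± 0.74 (edgeR adjusted p = 4.21e-05) was 3.21 without it, still called. After nanoceria it went from 1.27, 0.955, 0.787 and 0.999 CPM to 2.46, 10.6, 21.0, 16.2 and 9.31 CPM. The change there was 3.57 ± 0.77 (edgeR adjusted p = 0.00190), with nanoceria plus light 1 the lowest of the light-exposed libraries.

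Tenascin-C, Tnc (ENSRNOG00000058645), a matrix glycoprotein of development and wounds, was not called by edgeR in any of the 15 comparisons. It had 38.4, 45.9, 49.2, 39.01 and 44.3 CPM in control, and 45.3 (light damage 1), a median of 47.5 and 73.7 CPM (light damage 6) in light damage. Apart from light damage 6, light damage libraries lay within 45.3 to 52.6 CPM. The changes with light were 0.27 ± 0.16, 0.30 ± 0.18 and 0.00 ± 0.19 (log2, uninjected, vehicle, nanoceria), with 95% intervals of -0.07 to 0.61, -0.07 to 0.66 and -0.39 to 0.38. The edgeR adjusted p were 0.270, 0.290 and 0.993. With limma-voom, Tnc was called higher in the comparison after vehicle. In the injected groups the levels ran from 29.7 to 51.6 CPM in vehicle, 40.8 to 54.8 CPM in vehicle plus light, 34.03 to 68.0 CPM in nanoceria and 29.9 to 54.1 CPM in nanoceria plus light.

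**Figure D2:**
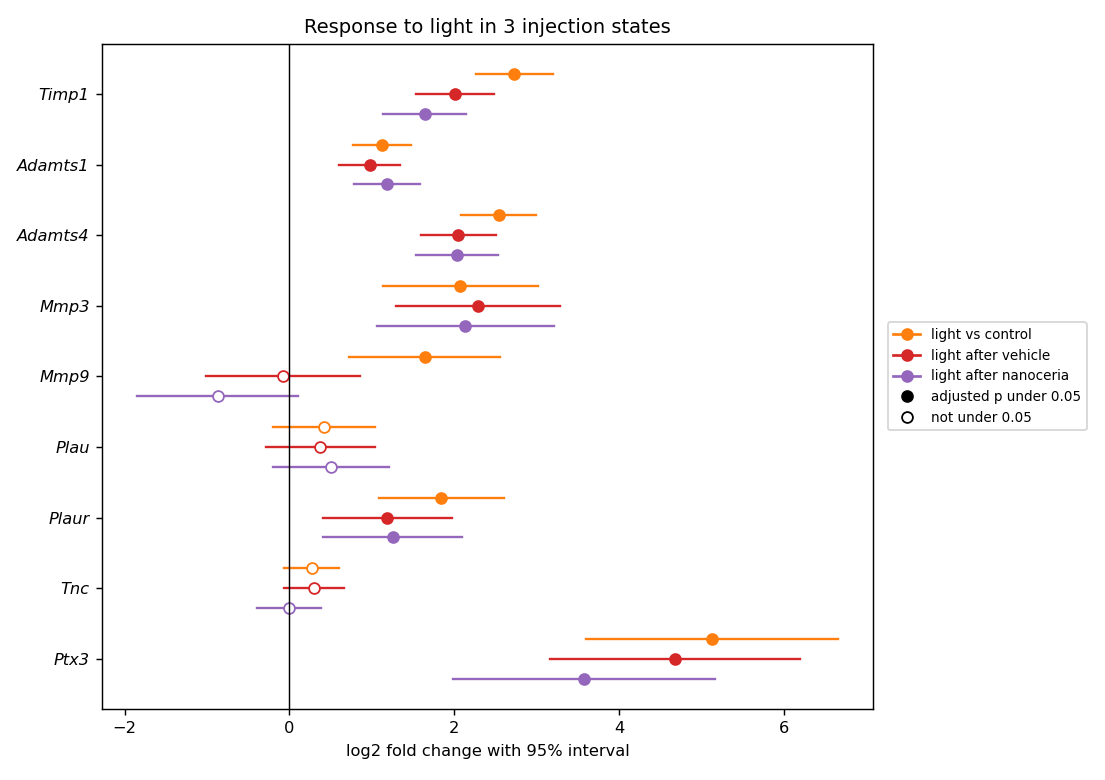
Response of each gene to light in uninjected, vehicle and nanoceria eyes, as the log2 fold change (points) with its 95% interval (lines). Filled points passed an edgeR adjusted p of 0.05. Mmp9 was filled for the uninjected eyes alone, and no interval of Plau or Tnc lay clear of 0.

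Whether injection altered the level under light was tested in 3 pairwise comparisons, and none called any of the 9 genes. Nanoceria plus light against vehicle plus light, where 0% of all genes were called by edgeR, gave 0 of 9 at an unadjusted p under 0.05 and 0 by DESeq2. Timp1 differed by -0.16 with a 95% interval of -0.61 to 0.30, Adamts4 by -0.07 (-0.51 to 0.36), Adamts1 by 0.08 (-0.29 to 0.45) and Mmp3 by 0.09 (-0.85 to 1.04). Ptx3 differed by -1.03 with an interval of -2.32 to 0.26, a value that was 0.45 without vehicle plus light 2. The narrowest intervals were those of Adamts1 and of Tnc, which differed by -0.02 (-0.39 to 0.34). Those of Mmp9 (-0.78 to 1.08), Plaur (-0.70 to 0.83) and Plau (-0.81 to 0.50) were wider. That of Mmp3 was wider still, and that of Ptx3 was the widest. Larger differences in these genes could have been missed.

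Against light damage without an injection, vehicle plus light had 0 of 9 called (0.122% of all genes called by edgeR; 0 of 9 at an unadjusted p under 0.05; 0 by DESeq2) and nanoceria plus light 0 of 9 (0.0608% of all genes; 1 of 9 unadjusted; 0 by DESeq2). The order of the group means of Timp1 was light damage, vehicle plus light at 66.2 ± 25.9 CPM (SD, n = 5) and nanoceria plus light at 59.3 ± 15.8 CPM (SD, n = 5), and neighbours in that order overlapped. Timp1 differed from light damage by -0.37 ± 0.21 in vehicle plus light (edgeR adjusted p = 0.659) and by -0.53 ± 0.21 in nanoceria plus light (edgeR adjusted p = 0.548). With both injections averaged, Timp1 differed by -0.45 (95% interval -0.80 to -0.10, edgeR adjusted p = 0.323) and Plaur by -0.67 (-1.26 to -0.07, edgeR adjusted p = 0.400), the 2 genes of 9 with an unadjusted p under 0.05, and DESeq2 called 0 of 9. Of all genes 0.486% were called in that comparison.

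Without light, vehicle against control called none of the 9 (0.0221% of all genes called by edgeR; 1 of 9 at an unadjusted p under 0.05, which was Mmp9; 0 by DESeq2). Mmp9 lay above control in every vehicle library and differed by 0.97 ± 0.47 (edgeR adjusted p = 0.613), the 1 gene of 9 whose groups did not overlap, against 1% of all genes separated upwards. Nanoceria against vehicle also called none (0% of all genes by edgeR; 0 of 9 unadjusted; 0 by DESeq2), though limma-voom called Tnc.

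Nanoceria against control called 1 gene of the 9, Mmp9, which was higher by 1.91 ± 0.49 (edgeR adjusted p = 0.0304), where 1.73% of all genes were called higher. The call rested on few libraries. Without nanoceria 1, which stood at 3.16 CPM, the change was 0.89 with an edgeR adjusted p of 0.428, and the call also ended without control 1, 4, 5 or 6 or nanoceria 3, with a term for sex (edgeR adjusted p = 0.0791), with limma-voom and with these groups fitted alone (edgeR adjusted p = 0.161). Nanoceria 5, at 0.345 CPM, lay within the range of control. Summed neutrophil markers were 7.87 CPM in nanoceria 1, between the 3.68 CPM of nanoceria 5 and the 9.28 CPM of nanoceria 3. Summed monocyte and macrophage markers (7 genes) were 236 to 327 CPM in nanoceria, highest in nanoceria 1, against 122 to 201 CPM in control, without overlap, and 2 of the 7 were called higher. Summed lens markers in nanoceria 1 were 12649 CPM, above every control library. The part of these markers in the difference was not tested. A Y-linked transcript was high in 4 of 5 control libraries and in 2 of 4 with nanoceria.

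Timp1 was the gene of the 9 whose nanoceria libraries all lay above control, at 17.2 to 21.1 CPM against 11.2 to 15.5 CPM, where 4.24% of all genes were separated upwards. The difference was 0.56 ± 0.24 and missed the threshold (edgeR adjusted p = 0.260), except when these groups were fitted alone. With vehicle and nanoceria averaged against control, 0 of 9 were called (1.07% of all genes by edgeR), 2 had an unadjusted p under 0.05 (Mmp9 with 1.44 ± 0.43, edgeR adjusted p = 0.0933, and Timp1 with 0.45 ± 0.20, edgeR adjusted p = 0.296), and DESeq2 called 1, Mmp9. In nanoceria against control the other 7 genes overlapped, with log2 differences from -0.56 (Mmp3) to 0.53 (Ptx3). The intervals that lay clear of 0 there were those of Mmp9 (0.91 to 2.92) and Timp1 (0.07 to 1.04).

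**Figure D3:**
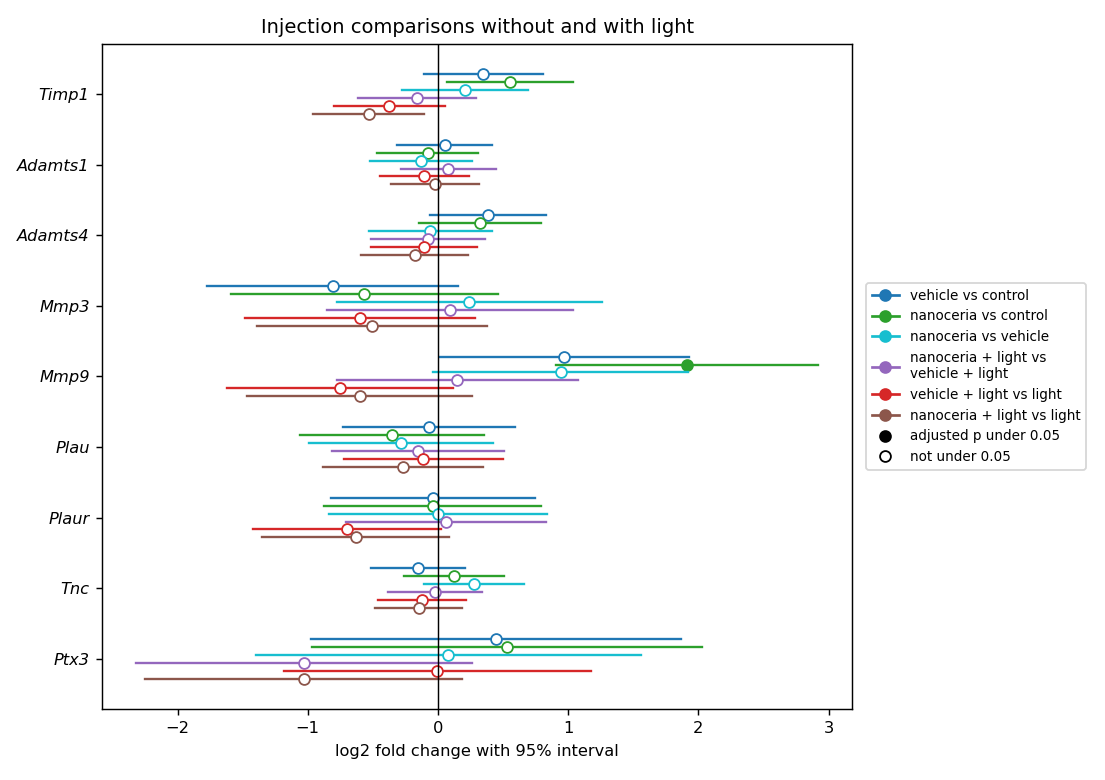
Injection comparisons without and with light, as the log2 fold change of the first-named group over the second (points) with its 95% interval (lines). Filled points passed an edgeR adjusted p of 0.05. Only Mmp9 in nanoceria against control is filled, and Timp1 points lie right of 0 without light and left of it with light.

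The difference between the light responses themselves was tested as an interaction. Relative to the uninjected response, the response after nanoceria differed by -2.52 ± 0.65 for Mmp9 (edgeR adjusted p = 0.0800) and by -1.09 ± 0.31 for Timp1 (edgeR adjusted p = 0.135), neither of them called, while DESeq2 called both. These were the 2 of 9 with an unadjusted p under 0.05, and 0.409% of all genes were called. Without nanoceria 1 the value of Mmp9 was -1.49 (edgeR adjusted p = 0.365). For vehicle against no injection, Mmp9 differed by -1.72 ± 0.63 (edgeR adjusted p = 0.614) and Timp1 by -0.72 ± 0.30 (edgeR adjusted p = 0.759), again 2 of 9 unadjusted, with 0.0442% of all genes called and 0 of 9 by DESeq2. For nanoceria against vehicle, 0 of 9 were called, 0 at an unadjusted p under 0.05 and 0 by DESeq2, as were 0% of all genes by edgeR. These comparisons share groups with those above and add no separate libraries.

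Averaged over the 3 injection states, light raised 6 of the 9 genes, where 20.5% of all genes were called higher. Timp1 rose by 2.12 ± 0.14, Adamts4 by 2.21 ± 0.13, Mmp3 by 2.17 ± 0.28, Plaur by 1.43 ± 0.22, Adamts1 by 1.09 ± 0.11 and Ptx3 by 4.46 ± 0.44. These 6 were called under every alternative and with any library left out, 40 fits in all. Of these fits, 1 could not differ: the compared groups fitted alone are here all 6 groups, as in the main fit. Mmp9 had 0.23 ± 0.26 (edgeR adjusted p = 0.532) and Tnc 0.19 ± 0.10 (edgeR adjusted p = 0.158). Without nanoceria 1, Mmp9 had 0.57 and passed the threshold, as did Tnc with 0.26. Tnc also passed with library size as the scaling and with limma-voom.

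The spread of Timp1 and Ptx3 between libraries was wider in each light-exposed group than in its counterpart without light. The coefficient of variation of Timp1 was 13.6%, 11.6% and 10.4% in control, vehicle and nanoceria, and 27.1%, 39.1% and 26.5% in the corresponding light-exposed groups. That of Ptx3 was 18.0%, 14.6% and 19.8% without light and 56.1%, 144% and 59.1% with it. Plaur was the third gene of the 9 with this order, and the other 6 did not show it in at least 1 injection state. Plau went from 35.9% in control to 25.1% in light damage and from 43.5% in vehicle to 19.3% in vehicle plus light. Adamts1 and Adamts4 were at 22.8% and 25.8% in control and at 15.1% and 15.5% in light damage, while Mmp3, Mmp9 and Tnc were at 88.8%, 104% and 30.7% in nanoceria and at 64.4%, 70.3% and 20.9% in nanoceria plus light. No test was made of these spreads.

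The spread was shared by several genes. Over the 17 light-exposed libraries, Timp1 and Plaur had a Pearson r of 0.92 on log2 CPM (Spearman rho 0.90, adjusted permutation p = 0.00012, permuted within groups, 36 pairs of genes), and r was 0.91 without the 2 libraries farthest from the median of Timp1. Timp1 and Mmp3 had an r of 0.89 (rho 0.89), Timp1 and Ptx3 0.87 (rho 0.83), Mmp3 and Adamts4 0.86 (rho 0.80) and Mmp3 and Ptx3 0.86 (rho 0.88), with adjusted permutation p from 0.00012 to 0.000576. Without the 2 farthest libraries these were 0.88, 0.83, 0.74 and 0.79. Of 36 pairs, 33 had a positive r, 15 an adjusted p under 0.05 by Pearson and 11 by Spearman, and the median r was 0.52. The same counts were not made for pairs of other genes. They therefore describe these pairs and do not set them apart from other genes that respond to light. The unadjusted p of Timp1 with Plaur, 1e-05, is the smallest that 100000 permutations can give.

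Plau had an r of 0.57 with its receptor Plaur (rho 0.57, adjusted permutation p = 0.0423 by Pearson and 0.0721 by Spearman), which was 0.34 without the 2 farthest libraries. Its r with Timp1 was 0.39 (rho 0.39, adjusted permutation p = 0.133) and with Adamts1 -0.16 (rho -0.02, adjusted permutation p = 0.721). Without the 2 libraries farthest from the median of Timp1, the r of Plau with Timp1 was 0.57. Without the 2 farthest from the median of Plau, that with Adamts1 was 0.35, so both depended on few libraries. No difference between these correlations was tested. In the 14 libraries without light, r was -0.12 for Timp1 with Plaur and -0.56 for Timp1 with Mmp3, given without a test. Other pairs kept a positive r there, with 0.78 for Timp1 with Adamts4 and 0.69 for Timp1 with Ptx3. For Mmp3 with Adamts4 and with Ptx3, r was -0.63 and -0.80 without light. With the near-identical libraries light damage 4 and 7 averaged, the r of Timp1 with Plaur was 0.92.

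**Figure D4:**
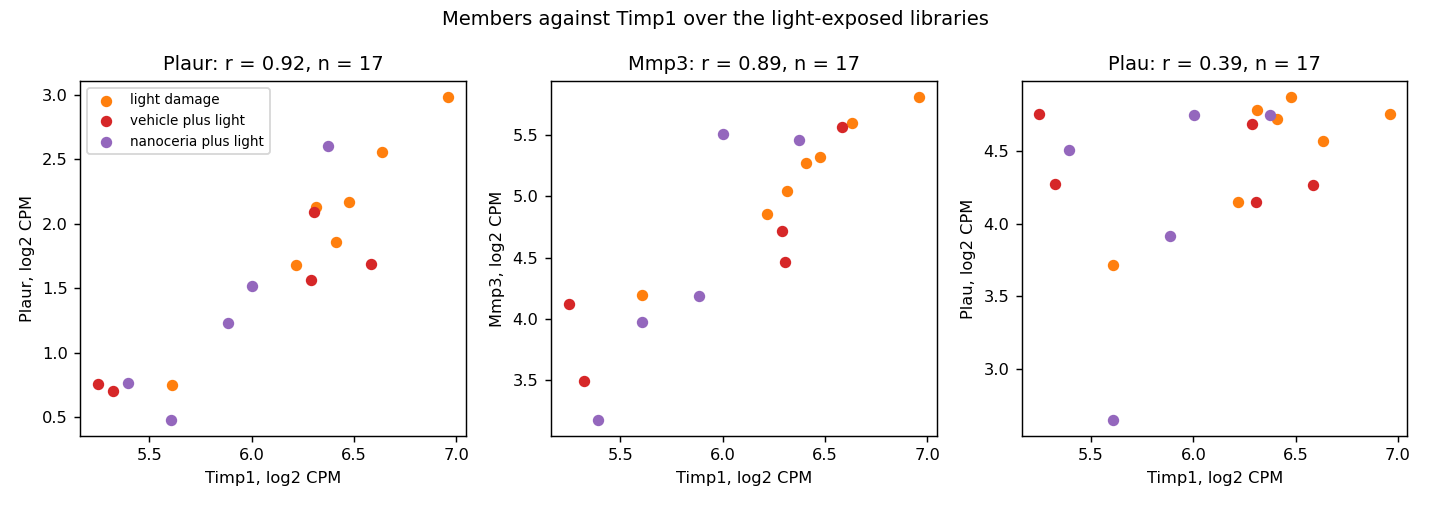
Plaur, Mmp3 and Plau against Timp1, both axes in log2 CPM, over the 17 light-exposed libraries, coloured by group. Plaur and Mmp3 rise along with Timp1 across all 3 groups, with r of 0.92 and 0.89. Plau scatters more, with r of 0.39, which was 0.57 without the 2 libraries farthest from the median of Timp1.

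The same libraries were low or high for most of the 6 genes that rose in all states. Vehicle plus light 3, vehicle plus light 6 and nanoceria plus light 1 were among the lowest 5 of 17 for all 6, and light damage 2 for 4 of them. Light damage 3 was among the highest 5 for all 6, and light damage 6 and vehicle plus light 2 for 5. The summed rod markers were 17450 and 19582 CPM in vehicle plus light 3 and 6, 17626 CPM in light damage 2 and 11436 CPM in nanoceria plus light 1, against 10443, 10381 and 11925 CPM in light damage 3, light damage 6 and vehicle plus light 2. The summed neutrophil markers were 2.88, 4.56, 3.01 and 3.73 CPM in the low libraries and 16.6, 26.8 and 30.9 CPM in the high ones. Not every other library followed this order. Light damage 1 had 18778 CPM of rod and 27.4 CPM of neutrophil markers, and was among the highest 5 for 1 gene and the lowest 5 for 1. Vehicle plus light 1 had 8692 and 8.35 CPM, and was among neither for any of the 6. The part of these markers in the spread was not tested.

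**Figure D5:**
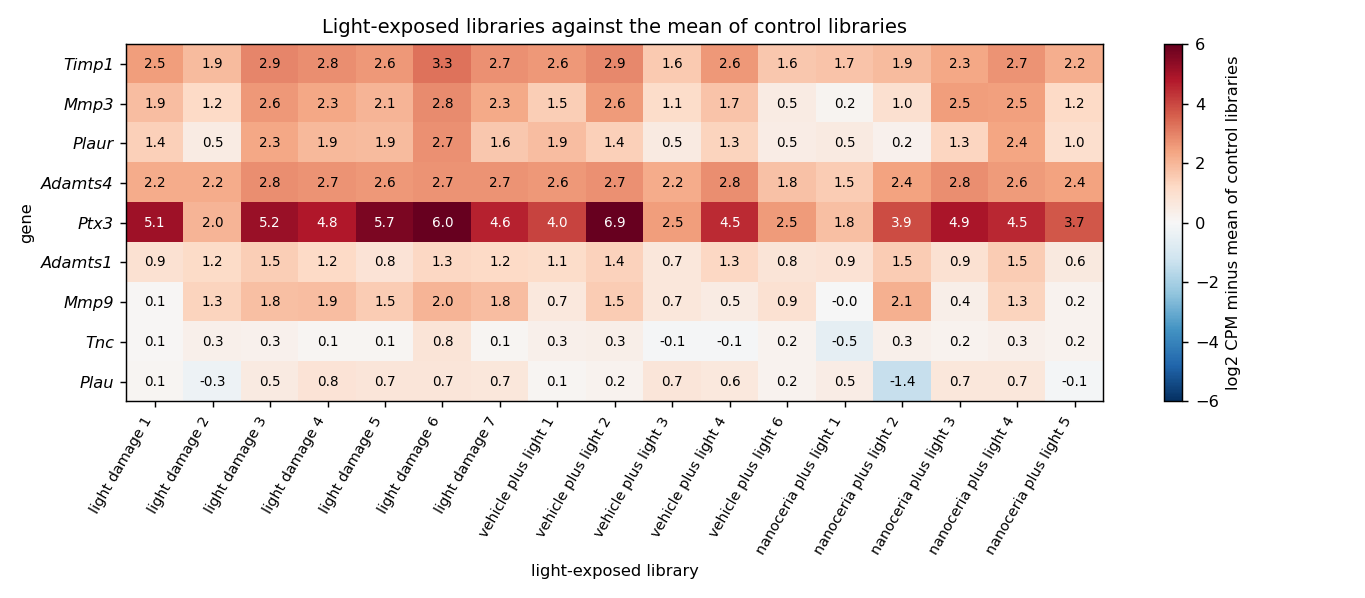
Log2 CPM of each gene in each light-exposed library minus the mean of the control libraries. Red is higher and blue lower than control, and the printed number is the difference. Ptx3 ranged from 1.8 in nanoceria plus light 1 to 6.9 in vehicle plus light 2, and Timp1 stayed at 1.6 or more throughout.

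Other genes of the same systems were counted from lists chosen with earlier results known. Of 21 further metalloproteinases tested, 9 rose and 1 fell with light averaged over the injection states, where 37.1% of all genes were called in either direction. Their median log2 change was 0.18, against 0.02 over all genes. Mmp10, a second stromelysin, rose by 2.33 ± 0.29, from 0.646 ± 0.263 CPM (SD, n = 5) in control to 2.78 ± 1.11 CPM (SD, n = 7) in light damage, and the collagenase Mmp13 by 1.75 ± 0.20. The membrane protease Adam12 rose by 1.13 ± 0.12.

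Of 22 other ADAMTS and ADAMTS-like genes, 6 rose and 4 fell, with a median of -0.01. With light averaged over the injection states, 37.1% of all genes were called in either direction, with a median of 0.02. Adamts9 rose by 1.09 ± 0.11, whereas Adamts7 changed by -1.16 ± 0.07, from 9.88 ± 0.402 CPM (SD, n = 5) in control to 4.73 ± 0.736 CPM (SD, n = 7) in light damage, and Adamts3, which processes procollagen, by -1.05 ± 0.12. Of 8 further metalloproteinase inhibitors 1 rose and 2 fell, with a median of -0.07. The general protease trap A2m rose by 1.03 ± 0.11, while Timp3 changed by -0.26 ± 0.07 and Timp4 by -0.69 ± 0.20.

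Of 21 other genes of the plasminogen system, 9 rose and none fell, with a median of 0.30. The share of all genes called in either direction was again 37.1%, with a median of 0.02. Tissue plasminogen activator, Plat, rose by 0.94 ± 0.09, the protein C receptor Procr by 1.39 ± 0.17 and the serine protease inhibitor Serping1 by 0.75 ± 0.12. Of 33 genes of provisional matrix and matricellular proteins, 9 rose and 2 fell, with a median of 0.06. Osteopontin, Spp1, rose by 2.09 ± 0.13, the hyaluronan receptor Cd44 by 1.08 ± 0.10 and the proteoglycan Ncan by 1.65 ± 0.16. Of 7 other pentraxins and soluble recognition proteins 3 rose and 1 fell, with Apcs up by 1.5 ± 0.16, Lbp by 1.62 ± 0.23 and Cd14 by 0.90 ± 0.17.

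Of 35 listed cytokines, growth factors, receptors and transcription factors, 26 rose and none fell with light averaged over the injection states, with a median of 1.06. Of all genes, 37.1% were called in either direction and 20.5% higher, with a median of 0.02. Stat3 rose by 1.69 ± 0.08, the cytokine receptor Il6st by 1.06 ± 0.05 and the AP-1 subunit Fosl1 by 4.26 ± 0.21, from 2.16 ± 0.374 CPM (SD, n = 5) in control to 62.3 ± 16.5 CPM (SD, n = 7) in light damage. The list genes named with light had edgeR adjusted p from 1.47e-15 (Stat3) to 0.00890 (Timp4). In nanoceria against control, where 2.46% of all genes were called, A2m was higher by 1.00 ± 0.21 (edgeR adjusted p = 0.00776), Serping1 by 1.05 ± 0.21 (edgeR adjusted p = 0.00630) and Spp1 by 0.90 ± 0.23 (edgeR adjusted p = 0.0310). Etv4, a factor downstream of growth factor signalling, was lower in nanoceria (-0.85 ± 0.15, edgeR adjusted p = 0.00276) and in vehicle (-1.02 ± 0.14, edgeR adjusted p = 0.000994), both against the same control libraries. No other gene of these 7 lists was called in vehicle or nanoceria against control.

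Across all 31 libraries the genes most like each member were taken by Pearson r of log2 CPM among 13137 genes of sufficient level, given as a description, since light itself separates the libraries. Timp1 was most like the membrane glycoprotein Pdpn, with an r of 0.98 over all and 0.92 over the 17 light-exposed libraries. Adamts4 was most like the metal-binding Mt2A (0.98 and 0.77) and the cytokine inhibitor Socs3 (0.97 and 0.82), and Adamts1 like the adhesion molecule Vcam1 (0.94 and 0.94). Ptx3 was most like the kinase Jak2 (0.97 and 0.93) and the chemokine Ccl7 (0.95 and 0.87).

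Plaur was most like the tRNA methyltransferase Mettl1 (0.95 over all and 0.94 over the light-exposed libraries) and Mmp3 like the RNA helicase Ddx21 (0.94 and 0.86). Plau was most like Osgin1 (0.91 and 0.86). Tnc and Mmp9 had no close match, the highest being the tubulin Tubb2b for Tnc (0.75 and 0.74) and complement C3 for Mmp9 (0.64 and 0.24).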

How the data were processed

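Libraries of polyadenylated retinal RNA were sequenced from both fragment ends. The deposited table holds raw read counts per gene, which the authors did not normalise as far as the values show: they are whole numbers with unequal totals. The submitters' processing notes name the rn6 build and, as tools, DESeq2 1.30.1 in R 4.0, featureCounts of Subread 2.0.1, STAR 2.7.9a and Trimmomatic 0.39. How strand, annotation and multiply mapped reads were handled is not given in the sources used here.

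Of 42 labelled samples, 31 with a matching column were used, and 11 were not analysed here. Totals ran from 25158407 to 182162368. The filter of edgeR (filterByExpr, minimum count 10, minimum total 15) kept 18094 of 32623 genes. The main test was the quasi-likelihood test of edgeR 4.0.16 in R 4.3.3 (robust, TMM scaling, 1 coefficient a group, all 31 libraries in 1 fit, no covariate), with Benjamini-Hochberg adjustment over 18094 genes, in 15 comparisons (9 pairwise, 3 averaged, 3 interactions). It was tested on simulated data. P-values measure the spread between these libraries. Levels are CPM after TMM scaling, are not per length and are not compared between genes. Log2 CPM had a prior count of 2.

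The genes and lists, and the rule for named genes, were chosen with earlier results of these data known. The rule named all 9 genes, from each of 7 pathway lists the 3 genes with the smallest adjusted p for light averaged over injection states and any gene called in an injection comparison without light or between the injections under light, and for each of the 9 the 3 genes with the highest r, of which the text gives a selection. Marker lists covered 14 cell types. Correlations over the 17 light-exposed libraries were tested with 100000 permutations within groups, 2-sided, over 36 pairs. Alternatives were DESeq2 1.42.0 (size factors, Wald test), library size as the scaling, no filter, the compared groups fitted alone, limma-voom of limma 3.58.1 with quality weights, a block for the replicate number, a term for sex from a Y-linked transcript, summed near-identical libraries and each library left out. Promoters come from RefSeq (GRCr8), matched by symbol for 8 of the 9 genes, and no GRCr8 position was set against the counts.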

Additional observations from a re-analysis of the deposited data

Results flagged for a closer look

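Within groups of 4 to 7 libraries, 9 of 54 sets of values held a highest or lowest library set apart from the rest. For independent values of a normal distribution, a gap of this size arises in about 1 set in 20 (2.7 of 54). Whether CPM follow such a distribution was not tested, and vehicle 4 and 7 were nearly identical, so 2.7 is a rough guide. In vehicle 3, Adamts1 was the lowest of 5 at 109 CPM, with the next at 146 CPM, while Plau was the highest at 29.6 CPM (next 15.6) and Mmp9 the highest at 1.03 CPM (next 0.598). In vehicle 1, the aggrecanase Adamts4 was the highest at 12.1 CPM, with the next at 8.54 CPM. Nanoceria 3 had the highest Mmp3 of its 4 libraries at 14.0 CPM, against 4.16 CPM in the next. It also had the highest summed fibroblast markers of its group, 4925 CPM, whose part was not tested. Ptx3 was the highest in control 1 at 0.907 CPM (next 0.665) and in vehicle plus light 2 at 86.2 CPM (next 15.5). Tnc was the highest of 7 in light damage 6 at 73.7 CPM (next 52.6) and the lowest of 5 in nanoceria plus light 1 at 29.9 CPM (next 49.3).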

How the results depend on the processing

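Light damage against control (7 of 9 called), light after vehicle (6), light after nanoceria (6) and light averaged over injection states (6) kept counts within 1.5 times of these under every alternative. Single-gene values in all 15 comparisons gave 3168 alternative values, of which 2919 kept their direction and side of the threshold, 28 lost a call, 22 gained one, 199 without a call on either side changed sign and 0 called values changed sign. Replicate numbers were not treated as pairs in the main test. Deviations of same-numbered libraries had a median r of 0.078 over 60 pairs, against -0.006 over the other pairs of groups. In no comparison was every r over 0.1, but the median reached 0.236 in nanoceria plus light against nanoceria. Whether same-numbered libraries were processed together was not tested. With the replicate number as a block, light after vehicle and light after nanoceria each had 5 called, Plaur being lost in both (edgeR adjusted p = 0.0596 and 0.0975). Nanoceria against control, 1 of 9 called (Mmp9), had 0 with the replicate block, with a term for sex and with limma-voom, and 0 to 1 with a library left out. Nanoceria against vehicle had 1 with limma-voom (Tnc). Any injection against none without light had 1 with the compared groups fitted alone (Timp1), 1 with DESeq2 (Mmp9), and 0 to 1 with a library left out. The interaction of nanoceria injection with light had 2 with DESeq2 (Mmp9 and Timp1) and 0 to 1 with a library left out. The cause of these changes was not tested. Depth limits Mmp9 most, with 7 counts in light damage 1.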
